A study of Mus musculus with 2 samples.

Results

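The interferon-induced GTPases described here are 4 immunity-related GTPases (IRG: Irgm1, Irgm2, Igtp and Iigp1) and 6 guanylate-binding proteins (GBP: Gbp2, Gbp3, Gbp4, Gbp6, Gbp7 and Gbp9), found by gene name as 10 of the 55414 rows of the deposited table. They were measured by RNA sequencing in NHOS cells, a mouse osteosarcoma line, as 1 library of cells transfected with IL10RB and 1 library of mock-transfected cells. IL10RB is a receptor subunit used by interleukin-10, interleukin-22 and type III interferons. Both cultures grew in DMEM with 10% serum and 1 mg/ml of Geneticin (G418), so the mock cells carry the selection agent too. The labels give neither the species of the construct nor its promoter, nor whether the transfectant is a clone or a pool. With 1 library per group there is no replicate check, no test and no SD, and every difference below lies between 2 libraries. Intervals are exact 95% intervals that cover counting error only, and reads amplified without molecular identifiers are not independent molecules.

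Both families are classic targets of interferons, and above all of interferon-gamma, in mouse cells. Interferon-gamma acts through its receptor and the kinases JAK1 and JAK2 on genes with gamma-activated sequences (GAS), and through IRF1, which binds interferon-stimulated response elements (ISRE). The GTPases gather on the membrane of vacuoles that hold parasites or bacteria and help to disrupt them. Irgm1, Irgm2 and Igtp (also called Irgm3) are the regulatory IRG proteins, which sit on the cell's own membranes and hold the effector IRG proteins, such as Iigp1 (Irga6), in the inactive state. GBPs are larger GTPases of the dynamin superfamily that form coats on pathogen membranes. The deposited annotation gives all 10 members GTP binding and GTPase activity, and it places 6 of them (Iigp1, Gbp2, Gbp3, Gbp6, Gbp7 and Gbp9) on the membrane of the symbiont-containing vacuole.

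The GTPase transcripts were more abundant in the transfectant library in 9 of the 10 members. Summed over all members, the deposited TPM (a level scaled for gene length and depth) was 153 in the transfectant and 21.2 in mock. In CPM (counts scaled for library size by TMM factors) the sums were 267 and 37.5, a ratio of 7.14 (6.60 to 7.73). The 3 regulatory IRG genes made up 83.9% of the members' TPM in the transfectant and 77.4% in mock. The 3 GBP genes of chromosome 3 made up 11.7% in the transfectant and 20.7% in mock, and the 3 of chromosome 5 made up 0.760% and 1.96%.

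A gene was called when it reached a floor of 50 counts in either library and differed 2-fold or more on the scale of log2(CPM + 0.5). Of the 7 members past that floor (Irgm1, Igtp, Irgm2, Iigp1, Gbp2, Gbp3 and Gbp7), 6 were called higher in the transfectant and 0 lower. The background over the 11952 genes that reached the floor was 19.7% called higher and 11.9% called lower. Gbp7 was the member past the floor that stayed within 2-fold, and Gbp4, Gbp6 and Gbp9 were under the floor. Over all 10 members the median log2 fold was 1.98, and the median log2 ratio without pseudocount was 2.77 with the 3 members at 0 in mock set at their bound. The median over all genes past the floor was 0.07. Over the whole table, 19696 genes had a TPM above 0 in the transfectant and 24873 in mock. Rows listed at 0 were therefore more common in the transfectant. Members and lists were chosen with earlier results of these libraries known, so these counts describe the family and are not independent support.

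**Figure D1:**
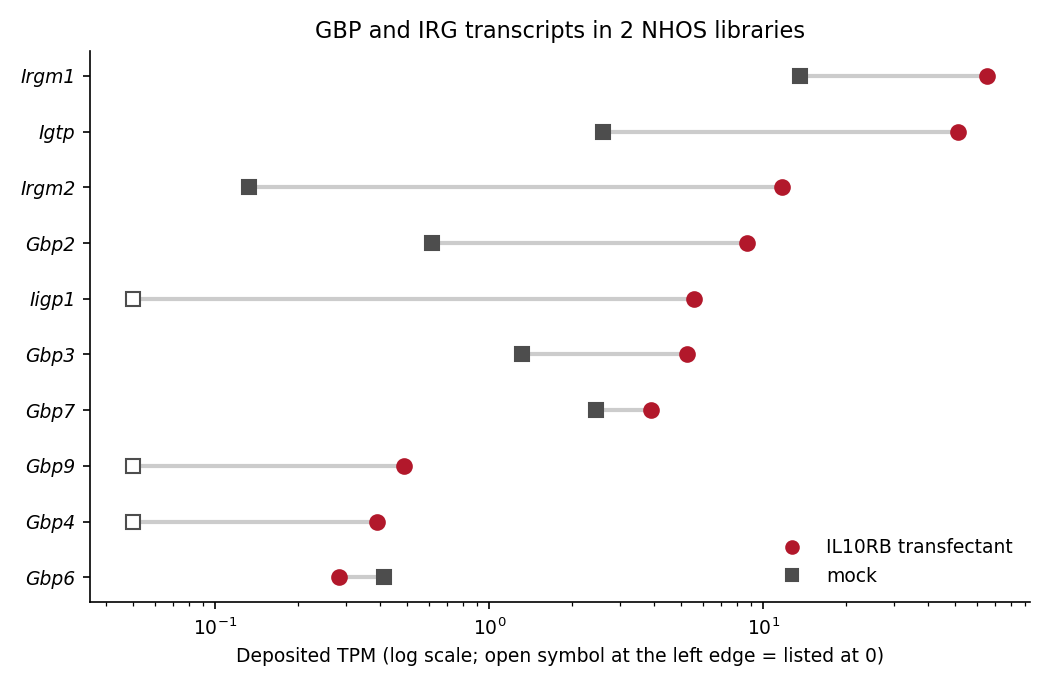
Deposited TPM (log axis) of the 10 members in the transfectant library (red circles) and the mock library (grey squares), 1 library each, with open squares at the left edge for rows listed at 0. Irgm1 and Igtp are the most abundant members in the transfectant, Iigp1, Gbp9 and Gbp4 are listed at 0 in mock, and only Gbp6 has its transfectant value below its mock value.

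Promoter windows of RefSeq (build GRCm38.p6) were matched by symbol for 6 members: Igtp, Irgm1, Irgm2, Gbp2, Gbp3 and Gbp7. The 120 bases before an annotated start of each gene are shown because they hold 1 or both of the 2 motifs that interferon signalling is known to use. Capitals mark matches to the ISRE core (GAAA, any 2 bases, GAAA, searched on both strands, so also TTTC, any 2 bases, TTTC) and to the GAS core TTCNNNGAA, which reads the same on both strands. Where 2 ISRE matches overlap they form 1 run of capitals.
Igtp, chr11:58199436-58199555, plus strand: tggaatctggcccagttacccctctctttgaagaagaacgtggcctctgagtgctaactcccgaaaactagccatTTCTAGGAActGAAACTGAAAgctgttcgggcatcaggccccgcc
Irgm2, chr11:58214857-58214976, plus strand: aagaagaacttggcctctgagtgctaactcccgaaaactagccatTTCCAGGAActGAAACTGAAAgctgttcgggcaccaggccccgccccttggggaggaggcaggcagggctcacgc
Irgm1, chr11:48871421-48871540, minus strand: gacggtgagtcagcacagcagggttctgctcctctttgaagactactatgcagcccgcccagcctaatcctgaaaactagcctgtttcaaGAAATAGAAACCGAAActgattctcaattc
Gbp2, chr3:142620543-142620662, plus strand: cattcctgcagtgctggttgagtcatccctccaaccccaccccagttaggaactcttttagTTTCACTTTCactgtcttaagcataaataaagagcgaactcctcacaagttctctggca
Gbp3, chr3:142559924-142560043, plus strand: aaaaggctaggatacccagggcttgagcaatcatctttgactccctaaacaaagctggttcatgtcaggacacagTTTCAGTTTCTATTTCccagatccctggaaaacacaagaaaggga
Gbp7, chr3:142530216-142530335, plus strand: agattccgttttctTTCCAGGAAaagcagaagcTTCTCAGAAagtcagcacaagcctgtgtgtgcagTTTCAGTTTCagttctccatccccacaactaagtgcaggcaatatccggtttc

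An ISRE match lay in a window of 6 of these 6 members. Of all 32851 promoter windows in the RefSeq table, 1.22% held one in the same 120 bases and 3.44% held one in the full 300 bases, which end 50 bases after the start. GAS matches were found for 3 of the 6 (Igtp, Irgm2 and Gbp7), against 3.15% of all windows over 120 bases and 8.30% over 300 bases. Both motifs together stood in 0.0609% of all windows over 120 bases. A second annotated start of Gbp3 had no match to either motif. Members are counted per gene, at any annotated start, and the background is counted per window. The stretch shown was chosen because it holds the motifs, so these counts describe it and test nothing. A match is a stretch of letters and not a measured binding site.

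In Igtp and Irgm2 the GAS and ISRE matches were separated by the same 2 bases, and the same spacing was found in the related IRG genes Tgtp1, Tgtp2 and Gm12185. Not all family genes had it. Of 11 other GBP and IRG genes with a window, 7 had an ISRE match and 5 a GAS match within the full 300 bases. Gm12250 and Gbp5 held both motifs at wider spacings, and Ifi47 held neither. The Igtp and Irgm2 windows were near copies, with 87 of 90 aligned bases identical at a shift of 30 bases. The ISRE began 34 bases before the start in Igtp and 64 bases before it in Irgm2. In Irgm1 the first of the overlapping ISRE matches began 30 bases before the start, in Gbp3 45, in Gbp7 53 and in Gbp2 59. Gbp7 was the member with 2 GAS matches and an ISRE, and its difference between the libraries was the smallest among the 6 genes with a window.

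Irgm1, the regulatory IRG with roles in autophagy and mitochondrial membranes, was the most abundant member in both libraries. It had 2585 counts, or 65.4 TPM, in the transfectant and 418 counts, or 13.6 TPM, in mock. In CPM its level was 106 (102 to 111) in the transfectant and 22.7 (20.5 to 24.9) in mock, a ratio of 4.69 (4.23 to 5.22). The 2 intervals are far apart, and Irgm1 is the member for which counting error is smallest. The gene (ENSMUSG00000046879.8) lies on the minus strand of chromosome 11 from 48752795 to 48762510 in the deposited table. The build of these coordinates is not given in the sources used here, and they differ from those of the promoter windows.

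Igtp, which encodes the regulatory IRG of the endoplasmic reticulum, stood close behind Irgm1 in the transfectant and well below it in mock. It had 1943.89 estimated counts, or 51.1 TPM, in the transfectant and 72 counts, or 2.61 TPM, in mock. Its CPM of 80.0 (76.5 to 83.6) in the transfectant was 20.5 times (16.2 to 26.3) the 3.90 (3.05 to 4.91) in mock. In order of TPM, Igtp stood at percentile 83.0 of the 19696 genes detected in the transfectant and at percentile 57.0 of the 24873 detected in mock. These sets differ, so the percentiles are not directly comparable. By log2 fold it ranked 61 among the 11952 genes past the floor.

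Irgm2, a regulatory IRG of Golgi membranes, had the largest ratio of the members detected in both libraries. It had 801.11 estimated counts, or 11.7 TPM, in the transfectant and 7 counts, or 0.133 TPM, in mock. The CPM ratio of 86.8 rests on those 7 counts and has an interval of 42.0 to 217. It ranked 20 by log2 fold among genes past the floor.

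Igtp and Irgm2 share reads in the deposited table. The Irgm2 row (ENSMUSG00000069874.8, chromosome 11, 58090444 to 58113608) overlaps the Igtp row (ENSMUSG00000078853.9, 58090382 to 58098417) over 7974 bases on the plus strand. Their fractional counts sum to a whole number within 0.01, 2745 in the transfectant, against 79 in mock. Taken as 1 unit, which does not depend on how reads were split, they were 26.4-fold higher in the transfectant (21.1 to 33.4). How much of that belongs to each gene is therefore less certain than the sum.

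Iigp1, an effector IRG that loads onto the vacuole of Toxoplasma, was detected only in the transfectant library. It had 201 counts in the transfectant and 0 counts in mock. Its CPM was 8.27 (7.16 to 9.49) in the transfectant, and a count of 0 allows up to 0.163 CPM in mock at the floor of 3 counts. Against that floor its level in the transfectant was at least 50.8-fold higher. The exact interval of the ratio has a lower limit of 41.0. The gene (ENSMUSG00000054072.13) lies on chromosome 18 from 60509099 to 60525706, apart from the chromosome 11 genes.

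On chromosome 3 the GBP genes stand in a row on the plus strand, and their ratios were larger from gene to gene along it. Gbp7, which is linked to host defence at pathogen vacuoles, comes first among the detected genes of the row (ENSMUSG00000040253.16, 142236103 to 142255910). It had 236 counts, or 3.87 TPM, in the transfectant and 107 counts, or 2.45 TPM, in mock. Its ratio of 1.67 (1.33 to 2.12) was above 1 by its counting interval and did not meet the 2-fold rule.

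Gbp3 follows it (ENSMUSG00000028268.15, 142265787 to 142278970) with 247 counts, or 5.27 TPM, in the transfectant and 49 counts, or 1.32 TPM, in mock. It was 3.83-fold higher (2.81 to 5.31). Gbp2, which carries a lipid anchor and coats vacuoles and bacteria, is the last of the row (ENSMUSG00000028270.13, 142326363 to 142343769). It had 418 counts, or 8.68 TPM, in the transfectant and 23 counts, or 0.615 TPM, in mock, a ratio of 13.8 (9.07 to 22.0). Gbp2b, a family gene between Gbp3 and Gbp2 and close kin of human GBP1, had 168 counts in the transfectant and 24 in mock and a ratio of 5.31 (3.45 to 8.52). The counting intervals of Gbp3 and Gbp2b overlap, whereas that of Gbp7 lies below both and that of Gbp2 lies above both.

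The 3 members on chromosome 5 were at the edge of detection. Gbp9 had 24.55 estimated counts (0.490 TPM) in the transfectant and 0 in mock. Against the floor of 3 counts it was at least 6.32-fold higher, with an exact lower limit of 4.77. Gbp4 had 29.45 estimated counts (0.390 TPM) in the transfectant and 0 in mock, at least 7.34-fold higher against that floor (exact lower limit 5.59). The rows of Gbp9 and Gbp4 overlap over 23773 bases, and their fractional counts sum to 54 in the transfectant against 0 in mock. As 1 unit they pass the floor for calls, at a bound of at least 13.7-fold higher (exact lower limit 10.7).

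Gbp6 differed from the other members in having the lower value in the transfectant. It had 14.04 estimated counts (0.282 TPM) in the transfectant and 15.02 (0.414 TPM) in mock, a ratio of 0.708 with an interval of 0.317 to 1.57 that includes 1. It shares reads with Gbp10 and the predicted gene Gm43302, and together the 3 rows had 31 counts in the transfectant and 20 in mock, a ratio of 1.18 (0.649 to 2.18). No difference of Gbp6 was detectable at this depth.

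**Figure D2:**
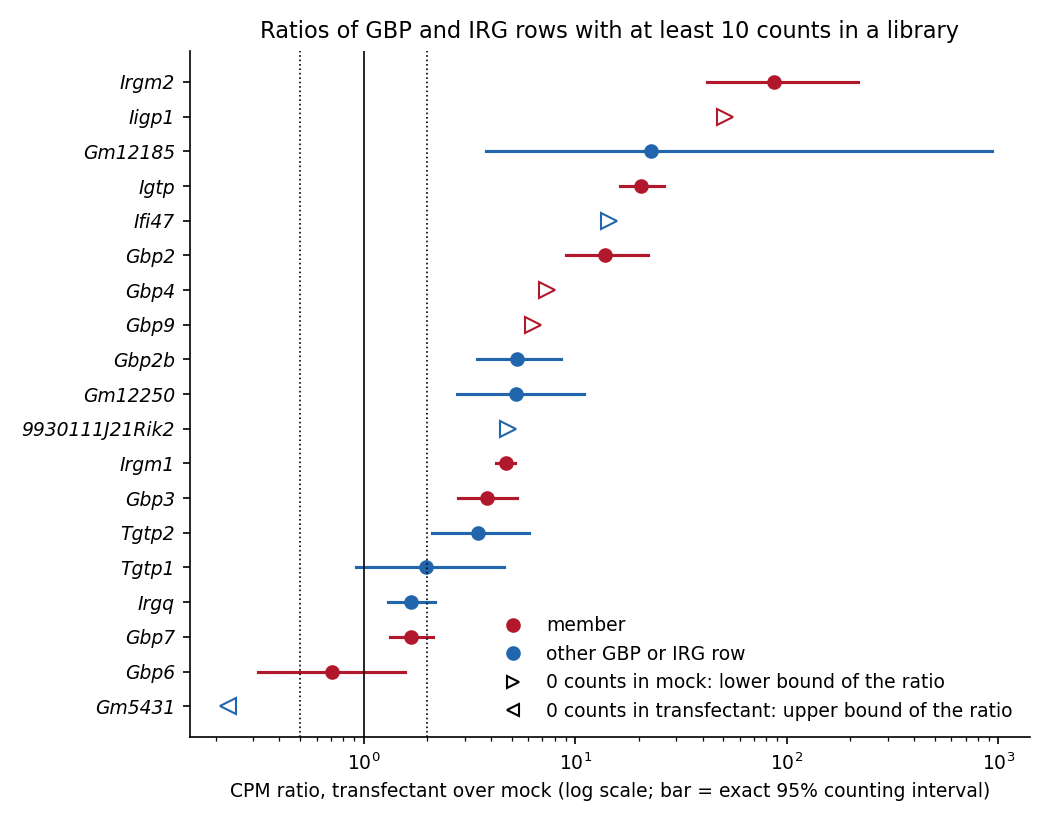
CPM ratio of the transfectant over mock (log axis) for the GBP and IRG rows with at least 10 counts in a library, members in red and other rows in blue. Bars are exact 95% counting intervals, open triangles are bounds for rows with 0 counts in 1 library, dotted lines mark 2-fold, and Irgm2 (86.8) and Gbp6 (0.708) are the highest and lowest members.

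The order of the levels differed between the libraries. In the transfectant it ran Irgm1, Igtp, Irgm2, Gbp2, Iigp1, Gbp3, Gbp7, Gbp9, Gbp4 and Gbp6 by TPM. Within counting error Iigp1 (4.85 to 6.43 TPM) and Gbp3 (4.63 to 5.97 TPM) could not be separated there, nor could Gbp9, Gbp4 and Gbp6. In mock, Irgm1 came first by a wide margin, and Igtp (2.61 TPM) and Gbp7 (2.45 TPM) followed with overlapping counting intervals. Gbp3 came next in mock at 1.32 TPM, ahead of Gbp2 (0.615 TPM), Gbp6 (0.414 TPM) and Irgm2 (0.133 TPM). Irgm2 thus stood next after Igtp in the transfectant and had the lowest value of the 7 members detected in mock, where its interval (0.0535 to 0.274 TPM) overlapped that of Gbp6 (0.232 to 0.683 TPM).

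Of 19 other rows of the 2 families in the table, 5 reached the floor, and 4 of those were called higher and 0 lower. Besides Gbp2b these were Tgtp2, Ifi47 and Gm12250. Tgtp2, an effector IRG, had 87 counts in the transfectant and 19 in mock (3.47-fold, 2.10 to 6.05). Ifi47 had 57 counts in the transfectant and 0 in mock, a bound of at least 14.4-fold higher (exact lower limit 11.4). Gm12250, which the table lists as a processed pseudogene and which is the locus of the effector Irgb10, was 5.24-fold higher (2.77 to 10.9). Irgq, a family relative outside the interferon response, was within 2-fold at 1.68 (1.30 to 2.18). Tgtp1 and Tgtp2 share reads, and their sum was 113 counts in the transfectant and 29 in mock, a ratio of 2.96 (1.95 to 4.61). Gbp5, Gbp8 and Gbp11 had 0 counts in both libraries. Gm5431 went the other way, with 0 counts in the transfectant and 10 in mock, at least 4.39-fold lower (exact lower limit 2.95).

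**Figure D3:**
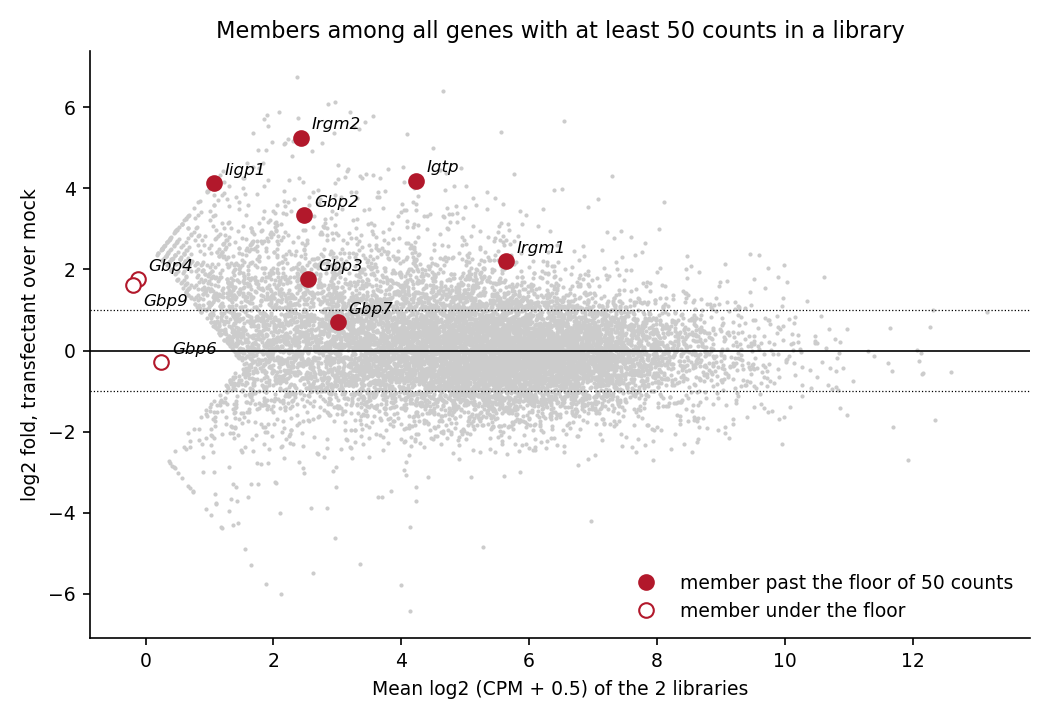
Log2 fold of the transfectant over mock against the mean log2 level of the 2 libraries, both from CPM + 0.5, for the 11952 genes that reached the floor (grey) and the 10 members (red, open where under that floor). Irgm2 (5.25), Igtp (4.19) and Iigp1 (4.13) have the highest log2 folds of the members, and Gbp7 lies inside the dotted 2-fold lines.

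The protein coding genes around the members were mixed in direction. Within 500 kb of the 5 member loci, 32 genes of other families reached the floor, of which 9 (28.1%) were called higher and 5 lower, with a median log2 fold of 0.07, equal to that of all genes. Around the chromosome 3 GBP genes 0 of 5 were higher and 3 were lower. There Pdlim5, the adjoining coding gene before the row, had a ratio of 1.00, and Kyat3, the adjoining one after it, was 4.10-fold lower. Around Igtp and Irgm2, 5 of 9 were higher and 0 lower, with a median of 1.14, so this locus differed from the other 4 in that most of its measured neighbours were also higher. Mrpl22, next before Igtp, had a ratio of 1.93, and Zfp692, the nearest one past the floor after Irgm2, a ratio of 1.13. On chromosome 5, Lrrc8b next to the GBP row was called higher, with a log2 fold of 1.75. Beside Irgm1, Trim7 was 10.5-fold higher on 8 counts in mock, and Psme2b, a proteasome activator gene inside the IRG cluster, was 3.14-fold higher. Smim3, the nearest gene past the floor beside Iigp1, had a ratio of 0.752.

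**Figure D4:**
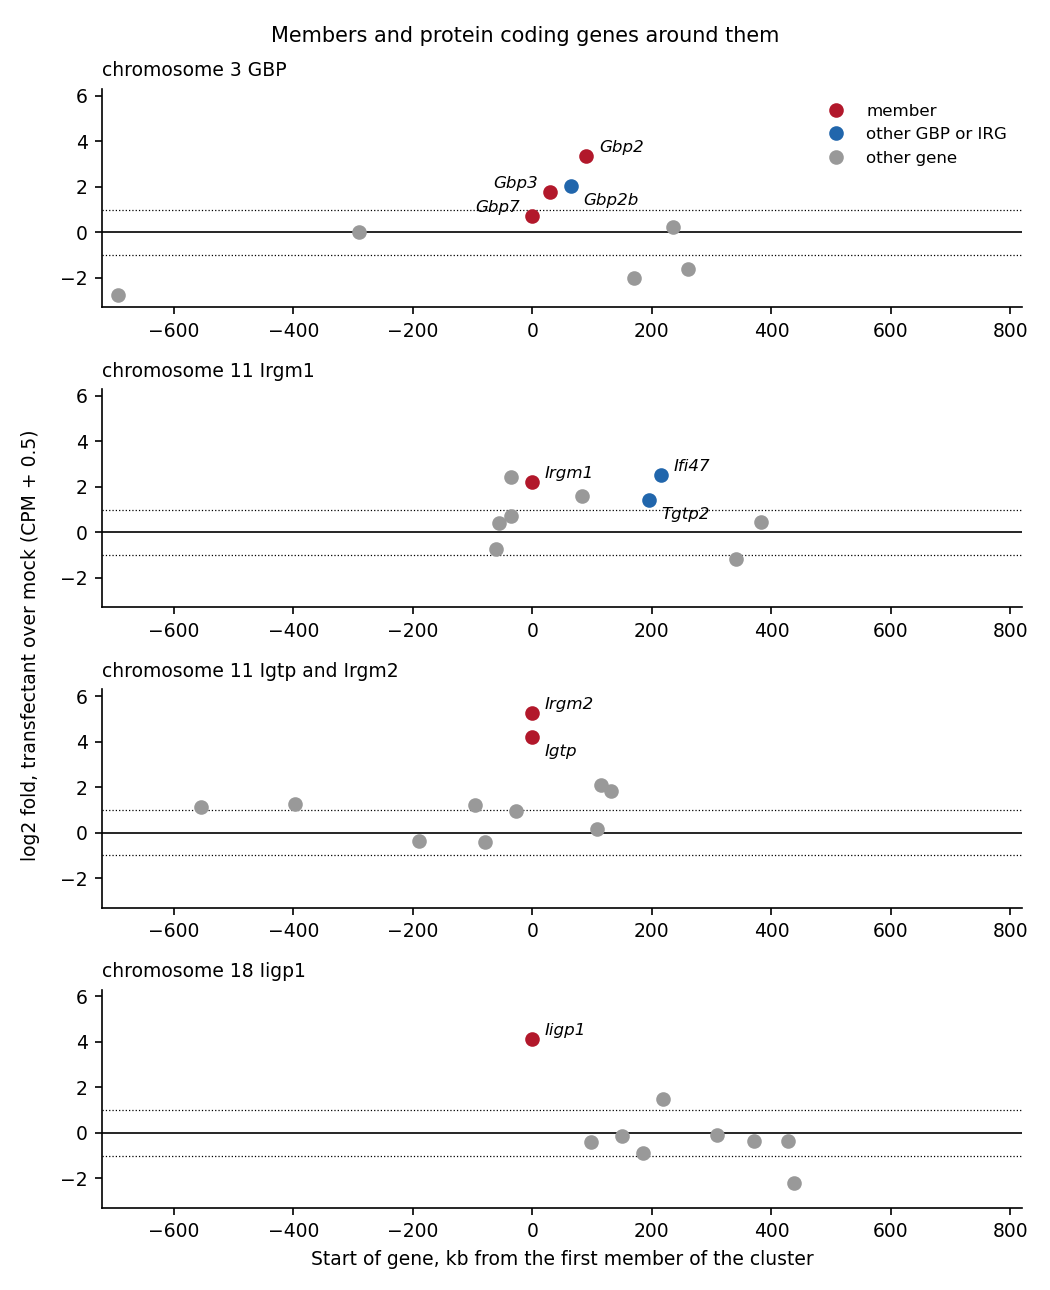
Log2 fold (CPM + 0.5), transfectant over mock, of the protein coding genes past the floor, against the start of each gene in kb from the first member of its locus. Members (red) stand above the genes of other families (grey; other GBP and IRG genes are blue) at the Igtp and Irgm2 locus and at Iigp1, and on chromosome 3 the GBP genes step upward from Gbp7 to Gbp2 between flanking genes that are level or lower.

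Of the 12 genes of the interferon-gamma pathway, 9 reached the floor, and 4 were called higher and 0 lower. The median log2 fold over those 9 was 0.05. Those called higher included the transcription factor Irf1 (149 CPM in the transfectant, 65.0 in mock, ratio 2.29, 2.14 to 2.45), the feedback inhibitor Socs1 (2.35-fold) and the receptor chain Ifngr2 (2.47-fold). Among those 9, Ptpn2, a phosphatase that acts on JAK1, had the lowest log2 fold, -0.99, at 44.8 CPM in the transfectant and 89.7 in mock. Irf8, an interferon-regulated transcription factor under the floor, had 0 counts in the transfectant and 15 in mock, at least 6.59-fold lower (exact lower limit 4.73). Ifng itself, the gene of the ligand, had 0 counts in both libraries.

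Type I and III interferon signalling had 8 of 16 genes at the floor or above, with 3 called higher, 0 called lower and a median log2 fold of 0.73. Usp18, which restrains the type I receptor, was 9.77-fold higher (6.39 to 15.6) and the transcription factor Irf7 5.64-fold (4.57 to 7.01). Irf3 was 2.59-fold higher. Stat2 and Irf9, which take part in the complex that binds the ISRE, were within 2-fold at ratios of 1.73 and 1.55. Ifnb1, the gene of interferon beta, had 0 counts in the transfectant and 2 in mock. The type III ligand genes Ifnl2 and Ifnl3 had 0 counts in both libraries. Ifnlr1, a chain of the type III receptor, had 0 counts in the transfectant and 4 in mock. Among other interferon-induced large GTPases, Mx2 (listed as a polymorphic pseudogene) had 91 counts in the transfectant and 13 in mock (5.31-fold, 2.96 to 10.4), and Mx1 and the very large GTPases Gvin1, Gvin2 and Gvin3 were under the floor.

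Genes that act with the GTPases differed by group. Of 9 inflammasome and pyroptosis genes, which GBPs feed by exposing bacterial products, 3 were past the floor and 3 were higher. These were Casp1 at 7.99-fold (6.99 to 9.16), the pore-forming Gsdmd at 8.68-fold (7.54 to 10.0) and Il18 at 25.8-fold (18.5 to 37.3). The other 6 were under the floor, and the 5 of them with any count were lower in the transfectant. Fewer genes were detected there over the whole table too, 19696 with a TPM above 0 against 24873 in mock. Casp4, the sensor of the pathway in which GBPs expose lipopolysaccharide, had 4 counts in the transfectant and 13 in mock. Pycard had 3 and 10, Aim2 0 and 7, Nlrp3 0 and 6, and Nlrc4 2 and 6, whereas Il1b was at 0 in both. The median log2 fold over all 9 genes was -0.50. Of 11 genes for Atg8 conjugation, which places IRG and GBP proteins on vacuoles, 0 were called higher and 1 lower, the autophagy receptor Sqstm1 at 2.67-fold. Of 6 genes for prenylation and CaaX processing, which anchor some GBPs in membranes, 0 were higher and 1 was lower, the farnesyl and geranylgeranyl transferase subunit Fnta at 2.70-fold. Among 9 related GTPases past the floor that are not known as interferon targets (atlastins, dynamins and mitofusins), 1 was higher, Atl3 at 2.16-fold, and the median log2 fold was 0.15.

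**Figure D5:**
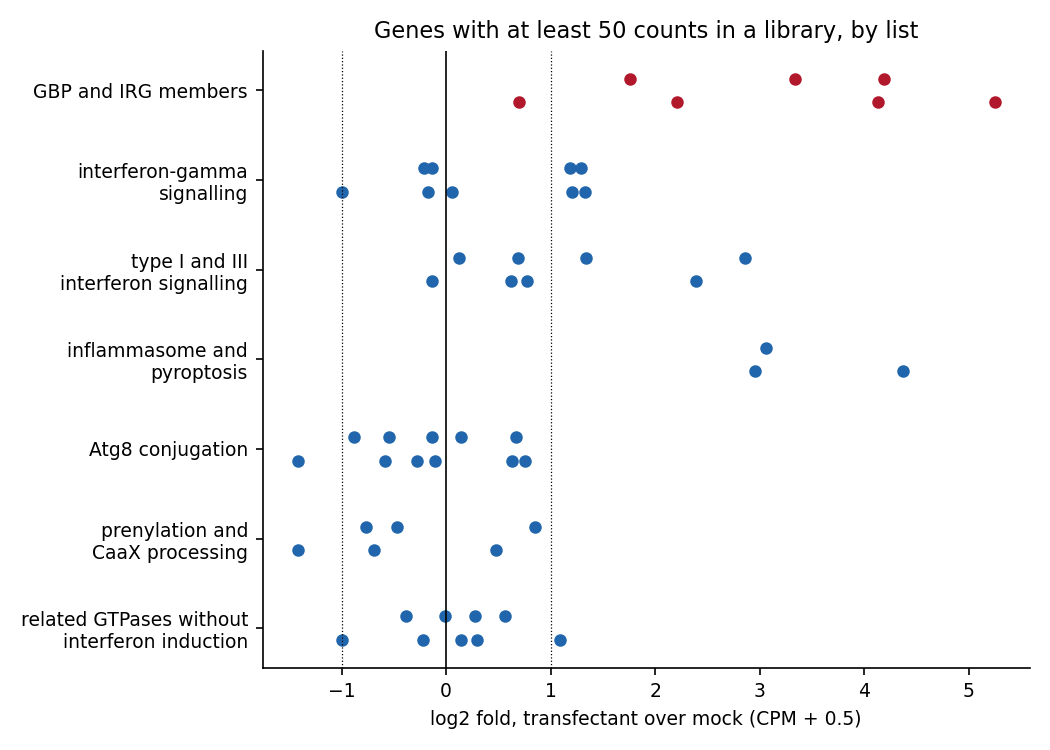
Log2 fold (CPM + 0.5), transfectant over mock, of each gene past the floor, by list, with the members in red on top. Of the 7 members shown, 6 lie right of the 2-fold line, and the Atg8 and prenylation genes lie on both sides of 0.

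The mouse Il10rb row had 1641 counts in the transfectant and 484 in mock, and its 67.5 CPM against 26.2 gave a ratio of 2.57 (2.32 to 2.85). Since the species of the construct is not given, this row may or may not count its transcripts. The transfectant library held 23898112 counts and 19696 genes with a TPM above 0, and the mock library 18766040 counts and 24873 such genes. Of 10 osteoblast lineage markers, 9 were past the floor, with 3 called higher and 0 lower. The levels of those 9 in mock ran from 8.97 TPM for Spp1 to 6670 TPM for Sparc. Dmp1 was under the floor, with 21 counts in the transfectant and 11 in mock. The matrix genes Ibsp (8.86-fold), Bglap (5.64-fold) and Spp1 (4.05-fold) were higher in the transfectant, and the transcription factors Runx2 (1.32) and Sp7 (0.907) were within 2-fold. Markers of macrophages and other leukocytes, cells in which these GTPases are well known, had a summed TPM of 50.04 in the transfectant and 10.1 in mock over 16 genes, of which 4 were past the floor, 2 higher and 1 lower. Lyz2 had 626 counts in the transfectant and 5 in mock, Cd68 150 and 12, Cd14 240 and 87, Fcer1g 36 and 6, Laptm5 35 and 14, Cd79a 15 and 5, and Nkg7 13 and 0. Lower in the transfectant were, among others, Csf1r with 24 and 57 counts, Ptprc with 0 and 27, Cd3e with 0 and 13, and Adgre1 and Ncr1 with 0 and 1 each. Itgam, Aif1 and Tyrobp were at 0 in both. The part of such cells in the GTPase levels was not tested. Endothelial markers summed to 28.8 TPM in the transfectant and 16.1 in mock, with 1 of 8 called higher (Egfl7, 394 and 137 counts) and 1 lower (Esam, 21 and 62). Kdr had 0 and 20 counts and Emcn 0 and 8, Pecam1 had 12 and 6, and Cdh5, Tek and Tie1 were at 0 in both libraries. In bulk RNA, a larger share of cells with a transcript and more of it per cell cannot be told apart.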

How the data were processed

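RNA of 1 IL10RB-transfected and 1 mock-transfected NHOS culture was made into SMART-Seq v4 cDNA libraries, per the labels' protocols. DRAGEN is named in the submitters' processing notes, without a role. The sources used here name no aligner settings, genome build or annotation. Strand is not stated, so genes that overlap on opposite strands cannot be told apart; the members that share reads overlap on the same strand or are close copies. Per the file headers, the authors deposited for each gene an estimated count (not normalised, shared between genes where fractional) and a TPM value scaled for length and depth. Each row also has a gene length, per the file headers. Start and end were identical to a GRCm38 annotation for 1494 of 52081 shared identifiers, so the deposited coordinates are not of that build.

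Estimated counts were rounded to whole numbers. TMM factors (1.02 transfectant, 0.983 mock) came from edgeR 4.0.16 in R 4.3.3. Size factors for 1 alternative were from DESeq2 1.42.0, and neither tool was used for a test. A count was worth 0.0411 CPM in the transfectant and 0.0542 CPM in mock, and 3 counts, taken as the most that a 0 allows, were 0.123 CPM in the transfectant and 0.163 CPM in mock. Bounds given as at least use those 3 counts and leave out the counting error of the other library, so exact lower limits are smaller. Folds in the text are CPM ratios with exact conditional (Clopper-Pearson) 95% intervals, levels carry exact Poisson intervals, and calls use log2(CPM + 0.5), at least 50 counts in 1 library and a fold of 2, which understates differences of low genes. Of genes past that floor, 33.6% had a count that was not whole in 1 or both libraries. The calls and intervals were checked on simulated counts drawn with counting error only. That setting holds no variation between cultures or from amplification, so it cannot show how reliable the calls are in that respect. Motifs were searched in RefSeq promoter windows (GRCm38.p6), and those listed for GBP and IRG genes leave out chromosome 18, where Iigp1 lies. Intervals came from scipy 1.17.1 under Python 3.11.15, tables from pandas 2.3.3 and figures from matplotlib 3.10.9.

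Named genes were all members, Il10rb, at most 6 genes of each pathway or family list by role and size of fold, the cell type markers, the coding genes adjoining each locus, and the 3 genes nearest to the most abundant member in log2(TPM + 1). Other names, such as Gm43302, Gm12185 and those past 6 in a list, were chosen after their values were seen. A gene of the interferon-gamma list and a gene of the leukocyte list are counted with their lists and are otherwise not reported here. Members and lists were chosen with earlier results of these data known. Alternatives were other scalings, pseudocounts of 0.1 and 2, other floors and folds, the deposited TPM and counts rounded down; summing rows that share reads was added after seeing the data.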

Additional observations from a re-analysis of the deposited data

How the results depend on the processing

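The count of members at least 2-fold higher was 6 under all 3 other scalings, both other pseudocounts, the floor of 200 counts, the deposited TPM and counts rounded down. It was 8 with no floor, 7 at a fold of 1.5 and 5 at a fold of 4. It was also 8 when each row that shares reads was given the sum of its group. That count takes the same reads more than once, for Igtp and Irgm2 and for Gbp4 and Gbp9. In each case 0 members were lower. The median log2 fold over the 10 members was 3.59 with a pseudocount of 0.1, because 3 members had 0 counts in mock and take their fold from that choice. With shared rows summed it was 2.44, the value of the Gbp4 and Gbp9 sum, which was entered for both rows. Over single members, 59 values lay within the counting interval, 21 outside it and 0 changed the direction of a called member. For Iigp1, Gbp4 and Gbp9, at 0 in mock, the interval ends at the main value, so any larger value was counted as outside. The uncalled Gbp6 ranged from -0.43 to 0.16. Of all genes, 3666 were higher and 2853 lower at a fold of 1.5, 772 and 219 at a fold of 4, as the threshold itself sets, and 2316 were lower with no floor, where genes with few counts enter. Upper quartile scaling moved the median of all genes to -0.04 from 0.07 and that of the members to 1.90. No paired analysis was possible because there was a single library on each side. Depth limits Gbp4, Gbp6 and Gbp9, which did not reach 50 counts in either library.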

Other observations

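Genes with an ISRE match in a promoter window were called higher in a larger share than all genes with a window, also without the GTPases. Of 326 such genes that reached the floor, 28.2% were called higher and 8.59% lower in the transfectant. Without the GBP and IRG genes the share was 26.7% of 318, against 19.5% of all 8995 genes with a window. Genes with a GAS match stood near that general share, at 20.3% of 739. Of the 43 genes with both motifs, 12 were higher and 0 lower, and without the GBP and IRG genes 9 of 39 (23.1%) were higher. The median log2 fold of ISRE genes was 0.19, against 0.08 for all genes with a window. These are counts in 2 libraries, and no test was made of them.

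The 3 genes outside the families nearest to Irgm1 in both libraries, by distance in log2(TPM + 1), were the cytidine deaminase Cda (65.1 TPM in the transfectant, 14.1 in mock), the mitochondrial dicarboxylate carrier Slc25a10 (63.7 and 12.6 TPM) and Abhd1 (69.6 and 12.9 TPM). With 2 libraries, this likeness says only that the 2 levels are close.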
